A study of Mus musculus with 108 samples.

Results

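The 6 loci described here are those of genes that encode cell surface proteins by which blood progenitors are recognised and sorted, Kit, Itga2b, Cd34, Itgb3, Ptprc and Spn. Each locus was taken as the gene body and 100 kb on each side in the GENCODE annotation of mm10, 6 of 21938 protein-coding genes treated in the same way. Together these windows held 2009 of the 1176477 distinct fragments recovered from sorted reporter cells, which had been listed 3987 times. The fragments merged into 70 distal sites, further than 1.5 kb from a transcription start by the authors' division, and 20 promoter sites.

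KIT is the receptor tyrosine kinase for stem cell factor and is carried by hemogenic endothelium and by early progenitors. Itga2b encodes CD41, the integrin alpha chain that pairs with the product of Itgb3 (CD61) to form the fibrinogen receptor of platelets, and CD41 is among the earliest surface proteins of cells that commit to blood. Cd34 encodes a sialomucin of endothelium and progenitors, Spn encodes the leukocyte sialophorin CD43, and Ptprc encodes the tyrosine phosphatase CD45 of nucleated blood cells. In this differentiation system KIT and CD41 also served as sort markers for the stages, so that cells of different stages had been selected on the protein products of Kit and Itga2b.

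The screen used HM-1 mouse embryonic stem cells. Open chromatin fragments cut by the Tn5 transposase were cloned from each of 5 stages into a pDONR plasmid, transferred to the targeting plasmid pSKB, and integrated at the Hprt locus before a minimal HSP68 promoter and the Venus-YFP reporter. All sorted groups therefore carried the same reporter cassette at the same site and differed in the inserted fragment, in the stage and in the YFP gate. The stages were undifferentiated cells (ES), FLK1+ hemangioblasts (HB), hemogenic endothelium that was KIT+ TIE2+ CD41- (HE1) or KIT+ TIE2+ CD41+ (HE2), and progenitors that were KIT+ TIE2- CD41+ (HP). Within a stage, YFP fluorescence defined 4 gates in replicates 1 to 4 (Negative, Low, Medium, High), whereas replicate 5 had a joint Medium/High gate beside its Negative and Low gates. No RNA was counted in these files, so the labelled cell types could not be checked against their transcripts, and a reporter at Hprt reports the activity of a fragment outside its own locus.

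The 95 sorted libraries list which fragments were present, with no read counts, so the measure was the number of distinct fragments per 10000 listed in the same set. Replicates 1 and 2 held 91.6% of 2287458 listings, with 15627 to 131091 fragments per library, whereas libraries of replicates 3 to 5 held 504 to 20729. In HE1, Negative replicate 1 and Medium replicate 2 shared 89445 fragments, which is 68.3% of the former and 78.5% of the latter. HE1 Negative replicate 3 and Low replicate 4 shared 5683 fragments, 83.0% and 49.2% of these lists. Values of HE1 rest on all its libraries unless said otherwise, and those without these 4 libraries are given beside the locus rates, gates and sites. The labels do not say whether replicates were separate cultures, so p-values measure the spread between these samples only.

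The most widely recovered distal site of each locus is shown by the 200 bases that positive fragments covered most often, because these are the stretches that the reporter read at the 6 loci. Sequences are from the RefSeq assembly GRCm38.p6 (mm10), on the plus strand, 5′ to 3′. Capitals mark matches on both strands to 7 motifs. The letters searched were AGATAA for the family of GATA factors, TGTGGT for RUNX factors, AGGAAG for ETS factors and TGANTCA for AP-1. They were GGAATG for TEAD factors, CAGATG for the E-box of basic helix-loop-helix factors and ATGCAAA for POU factors. Names give the distance in kb from the start of the gene in its direction of transcription. The Kit site lies in an intron of Kit at chr5:75608018-75608217, the Cd34 site between genes at chr1:194995293-194995492, and the Itga2b site in an exon of Itga2b at chr11:102456002-102456201. The Itgb3 site lies in an intron of Myl4 at chr11:104590189-104590388, the Ptprc site between genes at chr1:138039245-138039444, and the Spn site in an intron of Qprt at chr7:127110711-127110910.
Kit +33.2: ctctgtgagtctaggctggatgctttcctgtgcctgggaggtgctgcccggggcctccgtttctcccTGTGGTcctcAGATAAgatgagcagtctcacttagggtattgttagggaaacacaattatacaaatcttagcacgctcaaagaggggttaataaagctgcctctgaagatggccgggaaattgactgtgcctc
Cd34 +56.6: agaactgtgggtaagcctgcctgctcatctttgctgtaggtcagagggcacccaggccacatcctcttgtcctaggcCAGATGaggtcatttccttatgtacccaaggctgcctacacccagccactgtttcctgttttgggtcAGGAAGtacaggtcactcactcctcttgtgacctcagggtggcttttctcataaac
Itga2b +14.0: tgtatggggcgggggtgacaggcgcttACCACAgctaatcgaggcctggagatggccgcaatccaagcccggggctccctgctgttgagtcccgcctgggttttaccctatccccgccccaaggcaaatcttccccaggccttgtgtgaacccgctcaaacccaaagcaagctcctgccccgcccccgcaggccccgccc
Itgb3 -17.6: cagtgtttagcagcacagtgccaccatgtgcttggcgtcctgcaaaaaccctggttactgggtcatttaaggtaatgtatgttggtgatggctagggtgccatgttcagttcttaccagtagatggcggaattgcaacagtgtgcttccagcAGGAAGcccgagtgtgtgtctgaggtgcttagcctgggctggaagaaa
Ptprc +136.3: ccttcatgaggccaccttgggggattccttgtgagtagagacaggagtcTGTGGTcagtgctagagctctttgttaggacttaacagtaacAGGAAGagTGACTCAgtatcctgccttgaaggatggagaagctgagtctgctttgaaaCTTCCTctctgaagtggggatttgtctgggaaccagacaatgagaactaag
Spn +27.1: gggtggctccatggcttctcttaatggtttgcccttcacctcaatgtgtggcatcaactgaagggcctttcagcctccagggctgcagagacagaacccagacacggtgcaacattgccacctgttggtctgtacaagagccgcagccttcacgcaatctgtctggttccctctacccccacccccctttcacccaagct

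The Kit +33.2 kb stretch held 1 RUNX and 1 GATA match, and the Cd34 +56.6 kb stretch held 1 ETS and 1 E-box match. The Itga2b stretch held 1 RUNX match, the Itgb3 stretch 1 ETS match, and the Spn stretch none of the 7 motifs. The Ptprc stretch held 1 RUNX and 2 ETS matches together with an AP-1 sequence, TGACTCA. The pattern TGANTCA matches it on both strands. Such matches were common among the 58911 distal sites of the series. ETS letters occurred in 38.1% of their 200 base stretches, RUNX in 18.6%, E-box in 18.2%, TEAD in 14.0%, GATA in 13.2%, AP-1 in 12.3% and POU in 3.29%.

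A further pair of distal sites and the Itga2b promoter are shown because their share of plasmid fragments differed widely between stages, and the distal pair was chosen after these values were seen. The Cd34 -10.8 kb stretch, upstream of the gene at chr1:194927928-194928127, held 1 GATA match. The Itgb3 +10.8 kb stretch at chr11:104618737-104618936 held none of the motifs. The Itga2b sequence is the 250 bases before the RefSeq start of the gene, chr11:102469884-102470133 on the minus strand. The GENCODE start used for the locus is chr11:102470122, so by that annotation most of these bases lie within the gene. The stretch held 2 ETS matches, letters that occurred in 35.4% of 32851 RefSeq promoters of 300 bases.
Cd34 -10.8: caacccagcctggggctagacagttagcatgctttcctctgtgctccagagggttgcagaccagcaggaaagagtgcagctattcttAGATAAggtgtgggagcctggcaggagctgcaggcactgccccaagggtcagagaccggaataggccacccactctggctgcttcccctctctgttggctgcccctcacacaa
Itgb3 +10.8: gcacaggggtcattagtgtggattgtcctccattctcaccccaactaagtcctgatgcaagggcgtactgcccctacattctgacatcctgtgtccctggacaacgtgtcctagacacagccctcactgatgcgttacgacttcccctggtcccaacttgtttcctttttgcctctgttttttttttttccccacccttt
Itga2b promoter: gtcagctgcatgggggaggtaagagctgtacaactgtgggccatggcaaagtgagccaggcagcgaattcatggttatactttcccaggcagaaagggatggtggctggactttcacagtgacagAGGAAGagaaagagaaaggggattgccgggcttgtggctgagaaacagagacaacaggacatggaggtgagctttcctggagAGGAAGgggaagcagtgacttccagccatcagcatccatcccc

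The loci differed widely in how many fragments they held for their length. The Itga2b window, chr11:102453297-102470122 with its flanks, held 860 distinct fragments, or 3.97 per kb, at percentile 95.6 of all windows. The Spn window, chr7:127132232-127137823, held 553 fragments, or 2.69 per kb. Both windows are gene-rich, with 6 other protein-coding genes around Itga2b and 9 around Spn, and most of their fragments were promoter fragments, 625 and 436 respectively. The Itgb3 window, chr11:104608000-104670476, held 283 fragments (1.08 per kb) and the Cd34 window, chr1:194938819-194961279, held 191 (0.859 per kb), close to the median of 0.842 per kb over all windows. The Kit window, chr5:75574916-75656722, holds no other protein-coding gene and held 108 fragments, or 0.383 per kb, of which 27 were distal. Ptprc, chr1:138062861-138175708, stood at the other end with 14 fragments, or 0.0448 per kb, at percentile 15.1. None of the Ptprc fragments was a promoter fragment, which was so in 15.6% of all windows. These counts depend on gene density as well as on the marker gene itself.

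Fragments of the 6 loci recurred about as often as fragments elsewhere. Between 28.6% (Ptprc) and 38.2% (Cd34) of each locus's fragments were listed in 2 or more replicates, against 33.7% of all fragments. Between 21.4% (Ptprc) and 37.96% (Kit) were listed at 2 or more stages, against 29.7% overall. From 23.1% (Kit) to 35.7% (Ptprc) were found both in Negative and in YFP-positive cells, where the overall share was 24.6%. Of the 2009 fragments, 1605 (79.9%) were identical to a fragment of a plasmid list once the difference of 1 bp in start coordinates was allowed for, and 9 were identical to a fragment of the HM-1 control lists, which come from cells without the cassette.

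To ask whether the loci were represented differently in cells with an active reporter, the Low, Medium and High lists of a replicate were joined into a positive set and set against its Negative list. The Itga2b locus gave the largest difference among the members, at HE2. Its positive sets held 6.85, 5.63, 9.0, 4.09 and 12.9 distinct fragments per 10000 in replicates 1 to 5, a mean of 7.69 ± 3.41 (SD, n = 5). Its Negative lists held 8.84, 7.01, 0, 0 and 0 per 10000, a mean of 3.17 ± 4.39 (SD, n = 5). The Negative lists were above the positive sets in replicates 1 and 2 and empty in the small libraries of replicates 3 to 5, so the groups overlapped. On the log2 scale with 1 per 10000 added, the difference was 1.77 (SE 0.88), with an unadjusted p of 0.0448 and an adjusted p of 0.992 in limma. It was 0.33 with distal fragments only and 0.47 with the High gate as the positive set.

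Spn at HE1 had the next largest difference. Its positive sets held 4.05, 4.72, 15.5, 6.03 and 3.77 fragments per 10000, and its Negative lists 4.43, 3.69, 5.84, 0 and 0. The high value of replicate 3 came from 6 fragments, and the groups overlapped. The difference was 1.30 (SE 0.70) on the log2 scale, with an adjusted p above 0.999 in limma. Without the 4 HE1 libraries that share fragments it was 2.12, with an adjusted p of 0.850, and within 50 kb of the gene it was -0.05.

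No locus of the genome passed an adjusted p of 0.05 in any of these comparisons, so the share called was 0% of 17802 loci at ES, 17994 at HB, 18050 at HE1, 17677 at HE2 and 17436 at HP. At an unadjusted p below 0.05 limma gave 397, 454, 197, 246 and 337 loci in the same order. Of the 6 members, 0 were called at any stage. Of 87 tests on the members over all locus comparisons, 1 had an unadjusted p below 0.05, and the lowest adjusted p was 0.952. Ptprc had too few fragments to be tested at ES, HB and HE2. The median difference of all loci was 0.17, 0.16, 0.13, 0.25 and 0.08 at the 5 stages, so a small positive value was usual. The difference between positive and Negative cells also did not vary with stage past the threshold for any of 19292 loci (0%, with 214 at an unadjusted p below 0.05), the 6 members included.

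**Figure D1:**
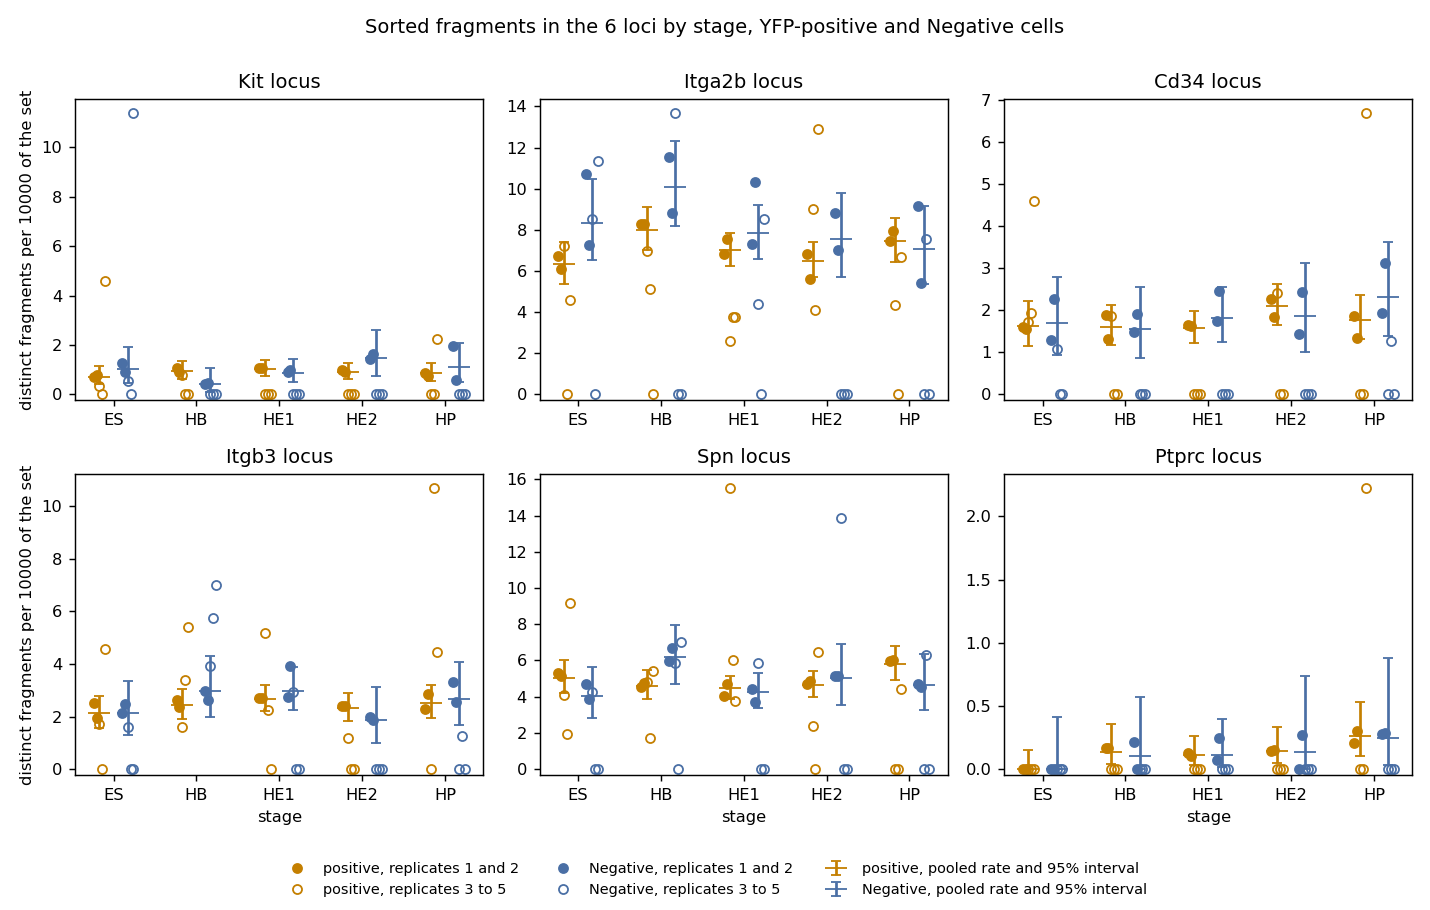
Distinct fragments per 10000 listed (vertical axis) by stage (horizontal axis) in each of the 6 loci, for YFP-positive sets and Negative lists. Points are the 5 replicates (filled for replicates 1 and 2, open for replicates 3 to 5), and bars are the pooled rate with its exact 95% Poisson interval. In the Spn panel the filled points of positive sets lie between 4.05 and 6.01 and the open points between 0 and 15.5, whereas the filled points of Kit Negative lists at HP lie 3.42-fold apart.

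The pooled rates in the plot of fragments by stage describe each locus without regard to replicate spread, and their exact 95% Poisson intervals cover counting error only. They sum fragments over the 5 replicates, so a fragment listed in several replicates counts in each. Kit fragments made up 0.71 per 10000 of positive listings at ES (17 of 239592, interval 0.413 to 1.14), 0.936 at HB, 1.03 at HE1, 0.906 at HE2 and 0.853 at HP. Kit in Negative cells ran from 0.412 at HB to 1.46 at HE2, and these extremes have overlapping intervals. For Cd34 the positive rate lay between 1.57 at HE1 and 2.09 at HE2, with intervals of 1.22 to 1.98 and 1.64 to 2.63.

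The Negative rate was above the positive rate at 4 of 5 stages for Itga2b and Itgb3, at 3 for Kit and Cd34, at 2 for Spn and at 0 for Ptprc. Positive cells held 6.34, 8.0, 7.01, 6.51 and 7.45 Itga2b fragments per 10000 from ES to HP, and Negative cells held 8.35, 10.1, 7.83, 7.55 and 7.09. Only at HP was the Itga2b order the other way, and the intervals overlapped at every stage. The pooled rates thus lay opposite to the positive test value at HE2, which the replicates 3 to 5 carried. In replicates 1 and 2 alone the Itga2b rate ranged from 5.63 to 8.30 in the 10 positive sets and from 5.41 to 11.5 in the 10 Negative lists.

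Itgb3, whose product pairs with that of Itga2b, held 2.13, 2.43, 2.69, 2.32 and 2.52 fragments per 10000 in positive cells from ES to HP, with overlapping intervals, and 2.14, 2.99, 2.98, 1.85 and 2.69 in Negative cells. Spn positive rates were 5.05, 4.61, 4.5, 4.64 and 5.82 per 10000 from ES to HP. The Spn values of HE1 (3.90 to 5.17) and HP (4.95 to 6.81) had intervals that barely overlapped. Ptprc was not found at ES in any of 10 lists or sets, where 0 of 239592 positive listings allows up to 0.125 per 10000. In later positive cells Ptprc stood at 0.139 at HB, 0.112 at HE1, 0.142 at HE2 and 0.260 at HP, from 4, 5, 5 and 7 fragments, and its HP interval of 0.104 to 0.535 overlapped the range that the ES count allows.

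Without the 4 HE1 libraries that share fragments, the positive HE1 rates per 10000 were 1.17 for Kit, 1.63 for Cd34, 6.89 for Itga2b, 2.77 for Itgb3, 4.34 for Spn and 0.0922 for Ptprc. The Negative HE1 rates were then 0.921 for Kit, 2.302 for Cd34, 9.90 for Itga2b, 3.68 for Itgb3, 3.45 for Spn and 0.230 for Ptprc, from 4, 10, 43, 16, 15 and 1 fragments. The order of positive and Negative cells at HE1 thus turned for Ptprc alone, which had 3 fragments left in positive cells. The positive to Negative test difference of Itga2b at HE1 was 0.03 with all libraries and 0.41 without the 4, and neither was called.

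The depth of replicates 3 to 5 limited every locus. Kit was represented in all 20 sets of replicates 1 and 2, positive and Negative alike, but in 4 of 15 positive and 2 of 15 Negative sets of replicates 3 to 5. For Ptprc only 1 of those 30 sets held a fragment. Itga2b and Spn were each held by 12 of the 15 positive sets and by 6 of the 15 Negative lists, which were smaller.

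Stage comparisons within positive cells addressed whether these loci were represented differently at different stages. Of their products only KIT and CD41 were sort markers, so the tests compare stages and not the gain of the surface proteins. From ES to HP the differences on the log2 scale were -0.22 (SE 0.51) for Kit, -0.50 (SE 0.70) for Cd34, 0.06 (SE 0.60) for Itga2b, 0.47 (SE 0.69) for Itgb3 and -0.90 (SE 0.63) for Spn. None passed the threshold, with adjusted p values in limma between 0.952 and 0.990, and 0 of 18178 loci (0%) were called, where 854 had an unadjusted p below 0.05. The pooled HP rates of Kit, Cd34 and Spn were above those of ES, opposite to these signs. Spn positive sets held 5.31, 5.13, 4.12, 1.95 and 9.17 fragments per 10000 in replicates 1 to 5 at ES and 5.95, 6.01, 0, 0 and 4.45 at HP, so HP was above ES in replicates 1 and 2 and below it in the small replicates 3 to 5. HP sets of replicates 3 and 4 held no fragment of Kit or Cd34 either. Ptprc could not be tested here. The 4 steps between neighbouring stages were tested over 18399, 18466, 18635 and 18343 loci in the order of differentiation. Each step had 0% of loci called, with 564, 774, 433 and 500 at an unadjusted p below 0.05. No member was called at any step.

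The gates were compared to ask whether the loci were represented more in brighter cells. Pooled over stages, Kit fragments stood at 0.968 per 10000 in High, 0.789 in Medium, 0.839 in Low and 0.934 in Negative gates. Cd34 stood at 1.64, 1.92, 1.88 and 1.83 in the same order, and Itgb3 at 2.63, 2.48, 2.52 and 2.63. These 3 loci had overlapping intervals across all 4 gates. Itga2b held 6.88, 7.34, 6.65 and 8.18 fragments per 10000, and the interval of its Negative gate (7.42 to 8.99) overlapped those of High (6.27 to 7.53) and Low (5.92 to 7.44) only narrowly. Spn held 5.19, 4.62, 4.42 and 4.75, and Ptprc 0.117, 0.193, 0.110 and 0.114 from 8, 12, 5 and 6 fragments. The Spn intervals also overlapped across the gates, with High at 4.67 to 5.76 and Low at 3.83 to 5.07, as did those of Ptprc. Without the 4 HE1 libraries the Negative gate stood at 8.54 for Itga2b, and no gate rate of a locus moved past its exact interval with all libraries. In the tests of joined Medium and High sets against Low lists, 0% of 17430, 17719, 17725, 17883 and 16353 loci were called from ES to HP, where 284, 354, 291, 107 and 199 had an unadjusted p below 0.05 in limma. No member was called, and Spn differences ran from 0.27 to 1.04 over the 5 stages while those of Kit, Cd34, Itga2b and Itgb3 took both signs. The median gate difference of all loci was 0.04, 0.20, -0.06, 0.18 and 0.05 from ES to HP.

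Single sites were then examined. Of the 70 distal sites, 8 (11.4%) were found in positive cells of all 5 stages and 29 (41.4%) at a single stage, close to 10.7% and 44.6% of the 58911 distal sites of the series. The sites seen at all stages were 4 around Itga2b, 3 around Spn and 1 around Itgb3. Positive cells held 21 of the 70 sites at ES, 21 at HB, 42 at HE1, 39 at HE2 and 37 at HP, or 40 at HE1 without the 4 libraries. These counts are not corrected for depth, which was 239592, 288613, 446570, 353253 and 269630 positive listings in the same order. Of all distal sites of the series, positive cells held 28.9% at ES, 36.2% at HB, 51.2% at HE1, 48.5% at HE2 and 41.3% at HP. In 22 of the 70 the site rested on a single distinct fragment. Distal sites were named by their number of positive sets, and each positive set joins several lists against a single Negative list. An excess of positive sets over Negative lists at a named site therefore does not measure reporter activity.

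**Figure D2:**
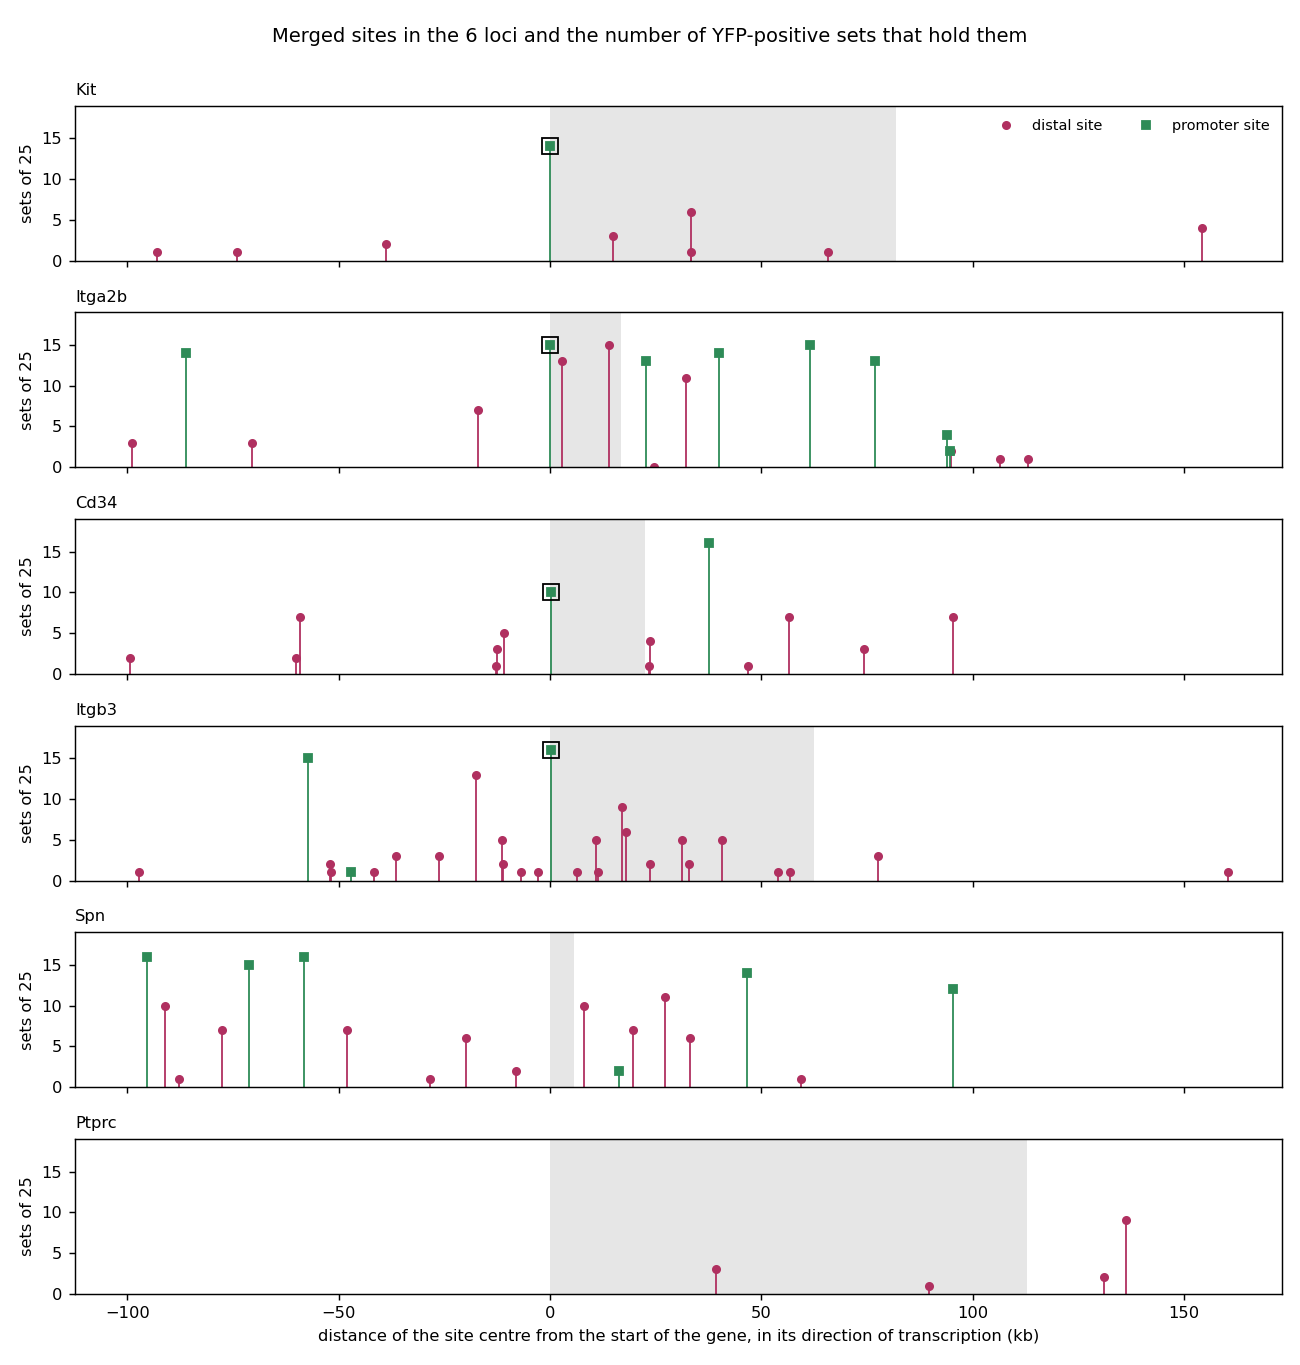
Merged distal and promoter sites of the 6 loci, by distance of the site centre from the start of the gene in its direction of transcription (kb, horizontal axis) and by the number of the 25 positive sets (5 stages, 5 replicates) that held a fragment (vertical axis). The promoters of Itga2b and Itgb3 reached 15 and 16 sets, whereas the most widely held distal site of Kit was in 6.

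Of the 6 genes, 4 had a sorted fragment over their own promoter. The Kit promoter (chr5:75574388-75575539) held 81 distinct fragments and was found in 14 of 25 positive sets and 12 of 25 Negative lists. Its positive sets of replicates 1 to 5 held 7, 8, 1, 0 and 1 fragments at ES and 14, 4, 0, 0 and 1 at HP. The Kit promoter was thus recovered from undifferentiated cells as from progenitors, at 8.98 distinct fragments per 100000 of the stage at ES and 7.38 at HP.

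The Itgb3 promoter (chr11:104607725-104608636) held 67 distinct fragments, in 16 positive sets and 12 Negative lists. Positive sets held 6, 7, 0, 0 and 0 Itgb3 promoter fragments at ES and 14, 4, 0, 2 and 1 at HP. The groups overlapped, and the HP to ES difference of 0.95 on the log2 scale had an adjusted p of 0.990 in limma (unadjusted p = 0.0769). The Cd34 promoter (chr1:194938548-194939383) held 18 fragments, in 10 positive sets and 8 Negative lists.

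The Itga2b promoter (chr11:102469446-102470701) was the most populated of the 4, with 127 distinct fragments, 94 of them identical to plasmid fragments. No Itga2b promoter fragment was listed at ES, in positive or Negative cells of any replicate, and 0 of 256003 distinct ES fragments allows up to 1.17 per 100000. Positive sets of replicates 1 to 5 held 15, 15, 5, 1 and 0 fragments at HB and 19, 26, 0, 2 and 1 at HE1. They held 21, 25, 2, 1 and 1 at HE2 and 24, 7, 0, 0 and 0 at HP. Counted over all sorted cells, the promoter stood at 11.5 per 100000 distinct fragments at HB, 10.9 at HE1, 13.6 at HE2 and 12.7 at HP, and at 10.7 at HE1 without the 4 libraries that share fragments. Every later stage was therefore at least 9.17-fold above the ES limit, whereas HB, HE1, HE2 and HP did not differ beyond their counting intervals. The ES to HP difference of this site could not be tested, since too few positive sets held it, and at HE2 the positive to Negative difference was 1.38 (adjusted p above 0.999 in limma).

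Ptprc and Spn had no sorted fragment over their own promoter. Within 500 bp of the Ptprc start the 5 pDONR lists held 1, 1, 1, 1 and 4 fragments from ES to HP, and the 5 pSKB lists 0, 0, 0, 1 and 1. For the Spn start the pDONR lists held 18, 12, 8, 0 and 9 fragments and the pSKB lists 3, 6, 2, 0 and 3. Both starts were thus sparse in the plasmid lists, against 108 to 224 pDONR fragments per stage within 500 bp of the Kit start.

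Distal sites of Kit were few and narrow. The +33.2 kb site in an intron held 6 distinct fragments, in 6 positive sets and 1 Negative list, and none at ES or HB. The Kit +154.3 kb site, between genes, and the +14.8 kb site, in an intron, also held 6 distinct fragments each, in 4 and 3 positive sets, and all of them at HE1 and later stages. None of the 8 Kit distal sites was found in positive ES cells.

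The largest site of the Cd34 window lay at +37.6 kb, between genes, and was listed as a promoter site. Its nearest protein-coding start was 37414 bp away. It held 90 of the 191 distinct fragments of the window, in 16 positive sets and 11 Negative lists, and was found at all 5 stages. The locus rates of Cd34 thus rest largely on this site. Cd34 had 12 distal sites. The most widely recovered lay +56.6 kb from the gene start, with 18 distinct fragments in 7 positive sets and 5 Negative lists or sets. It was not found at ES or HB, and its positive sets held 4 and 5 fragments in replicates 1 and 2 at HE1, 3, 2 and 2 in replicates 1 to 3 at HE2, and 4 and 2 in replicates 1 and 2 at HP. Sites at -59.1 kb and +95.2 kb were each found in 7 positive sets as well, and unlike the +56.6 kb site they were present at ES. The -10.8 kb site held more fragments, 26, in 5 positive sets, and was likewise listed only at HE1 (13 fragments), HE2 (11) and HP (7). Without the 4 HE1 libraries that share fragments, 10 HE1 fragments of the -10.8 kb site and 6 of 9 of the +56.6 kb site were left.

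At Itga2b the 3 leading distal sites lay in exons and close to other annotated starts. The +14.0 kb site held 83 distinct fragments in 15 positive sets and lay 112 bp from the start of another Itga2b transcript. The +2.9 kb site held 71 fragments in 13 sets and lay 37 bp from another such start, and the +32.2 kb site held 53 fragments over exons of Fam171a2 and Grn. The G and C content of their 200 base stretches was 65.5% to 70.5%, against a median of 51.5% for all distal sites. All 3 were found in positive cells of all 5 stages.

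Itgb3 had the most distal sites, 24, of which 14 were seen at a single stage. The -17.6 kb site in an intron of Myl4 held 35 fragments in 13 positive sets, and the +17.0 kb site in an intron of Itgb3 held 22 in 9 positive sets. The Itgb3 +17.0 kb site was present from ES to HE2 and held no fragment at HP. The Ptprc site at +136.3 kb, downstream of the gene, held 8 distinct fragments in 9 positive sets, including 1 of replicate 5, and accounted for 20 of the 31 Ptprc listings. This Ptprc site was also in 4 Negative lists, and 1 of its fragments was identical to a fragment of the HM-1 control lists. Around Spn, sites in introns of Qprt (+27.1 kb) and Sept1 (-91.2 kb) held 23 and 25 fragments in 11 and 10 positive sets.

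No site of the genome was called in limma between positive and Negative cells, 0% of 13722 sites at ES, 15800 at HB, 17808 at HE1, 13141 at HE2 and 11711 at HP, nor between ES and HP (0% of 15451). At an unadjusted p below 0.05 there were 221, 222, 29, 48, 71 and 361 sites in that order. Of 137 tests on sites in the 6 windows, the lowest unadjusted p was 0.0410, for a promoter site of other genes in the Spn window, and the lowest adjusted p was 0.990.

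The plasmid lists give the background to these counts, since they show which fragments of each stage's chromatin had been cloned before any cell was sorted. There was 1 list per stage and vector, so stage differences have no replicate check, and ratios below carry counting intervals only. With both vectors summed, HP lists held 1.65 times the ES rate at Cd34 (95% interval 1.49 to 1.83), 1.35 times at Itga2b (1.29 to 1.41), 1.29 times at Itgb3 (1.21 to 1.37) and 1.22 times at Kit (1.11 to 1.34). Ptprc (1.03, 0.878 to 1.22) and Spn (1.01, 0.959 to 1.07) had intervals that included equal rates. Of these, the Kit ratio in pSKB lists alone was 1.12 (0.892 to 1.402). No such ratio was taken over all loci, so whether these loci differ from the series was not tested. As shares of the pDONR rates summed over stages, promoter sites of the series had medians of 15.6% at ES and 21.4% at HP. Distal sites of the series had medians of 17.6% and 17.1%. A ratio above 1 is thus not particular to windows rich in promoter fragments around these genes.

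Single sites differed far more. At the Itga2b promoter the pDONR lists held 5 fragments at ES, 65 at HB, 394 at HE1, 382 at HE2 and 489 at HP. As rates these were 0.883, 10.4, 44.6, 59.97 and 71.4 per 1000000 distinct fragments, rising at each stage. The HP rate was 80.9 times the ES rate in pDONR (34.4 to 250.1) and 53.3 times in pSKB (14.3 to 448). ES made up 0.472% of the summed rates of this promoter, at percentile 0.658 of promoter sites with 20 or more pDONR fragments. The absence of the site from sorted ES cells thus went with its near absence from the ES plasmid list, and whether it followed from that, or from the authors' filter on open chromatin peaks, was not tested. Sorted counts did not follow the plasmid counts thereafter, since the plasmid rate rose 6.84-fold from HB to HP while the sorted rate was 1.10-fold higher.

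The other own promoters were spread more evenly. ES made up 15.6% of the summed pDONR rates at the Kit promoter, 14.1% at the Itgb3 promoter and 25.8% at the Cd34 promoter, where equal rates at 5 stages would give 20%. Over 17633 promoter sites with 20 or more pDONR fragments, the median ES share was 15.6%, with quartiles of 12.6% and 21.1%. Kit and Itgb3 thus lay within the quartiles of the series and Cd34 above the upper one. The median HP share of these promoter sites was 21.4%, above their median ES share. The Kit promoter held 19.6 fragments per 1000000 at ES (16.1 to 23.6) and 33.3 at HP (29.1 to 37.9), intervals that did not overlap. Cd34 ran the other way, with 9.72 per 1000000 at ES (7.32 to 12.6) and 5.84 at HP (4.17 to 7.96). These intervals overlapped, which does not show equal rates. The pSKB lists held 22 Cd34 promoter fragments of 1693853 at ES and 6 of 1302941 at HP.

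**Figure D3:**
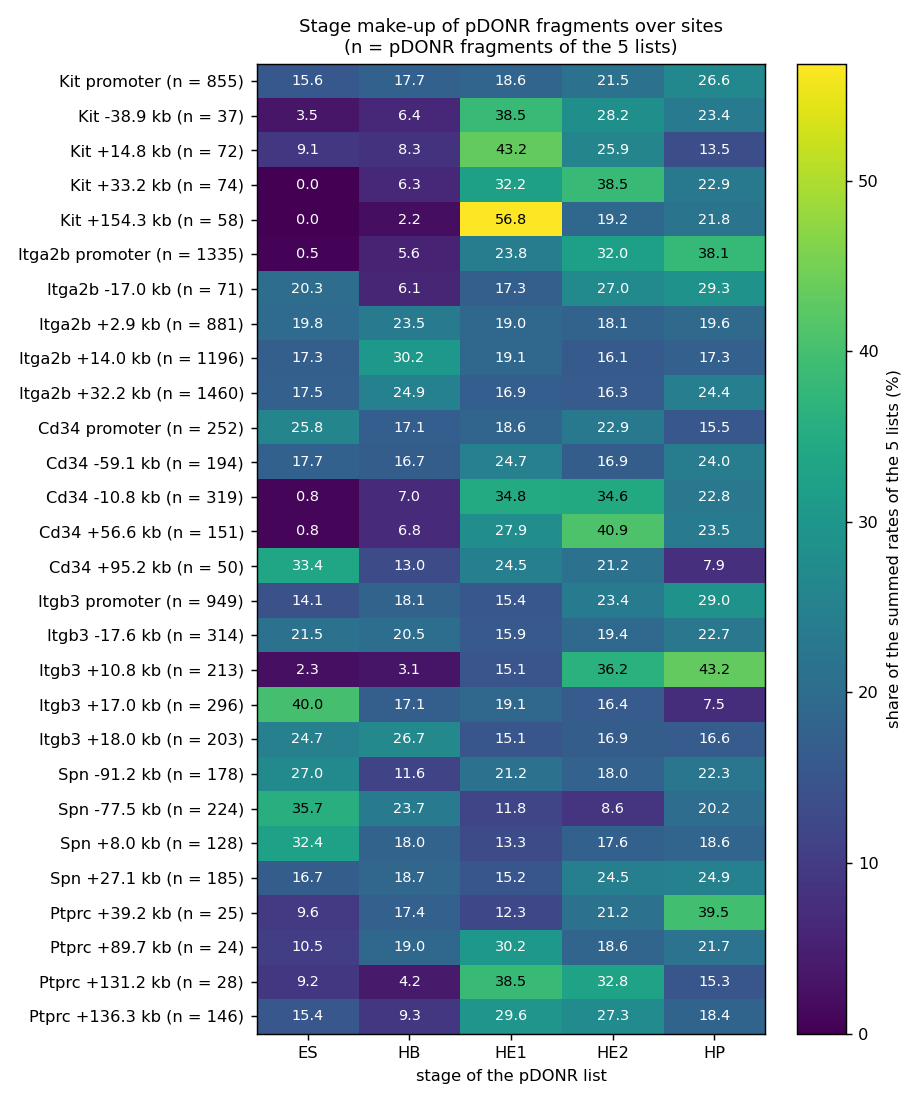
Share of each stage (horizontal axis) in the summed pDONR rates of the own promoters and leading distal sites of the 6 loci (vertical axis, with the number n of pDONR fragments), in percent. ES makes up 0.5% at the Itga2b promoter and 39.98% at the Itgb3 +17.0 kb site, and HE1 makes up 56.8% at the Kit +154.3 kb site.

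Among distal sites the same contrast was found within loci. The Kit +33.2 kb site held 0, 4, 29, 25 and 16 pDONR fragments from ES to HP, where 0 allows up to 0.530 per 1000000 at ES and the HE2 rate was 3.92. The Kit +154.3 kb site held 0, 1, 37, 9 and 11, with its highest rate, 4.19 per 1000000, at HE1. At Cd34, the -10.8 kb site held 2, 19, 134, 96 and 68 pDONR fragments, and its HE1 rate was 42.9 times its ES rate (11.7 to 358). The Cd34 +56.6 kb site held 1, 9, 52, 55 and 34.

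Neighbouring sites of Itgb3 moved in opposite directions in the plasmid lists. The +10.8 kb site held 4, 6, 41, 71 and 91 pDONR fragments from ES to HP, and its HP rate was 18.8 times its ES rate (7.10 to 70.5). The +17.0 kb site held 102, 48, 76, 47 and 23, and its HP rate was 0.186 times its ES rate (0.113 to 0.295). In sorted cells the Itgb3 +10.8 kb site was listed with 0, 0, 7, 3 and 2 distinct fragments and the +17.0 kb site with 5, 8, 13, 10 and 0. Their HE1 counts were 5 and 9 without the 4 libraries that share fragments. The 0 of the +17.0 kb site at HP allows up to 1.01 per 100000, and from HE1 to HP the sorted counts of the +10.8 kb site went from 7 to 2 while its pDONR counts went from 41 to 91.

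**Figure D4:**
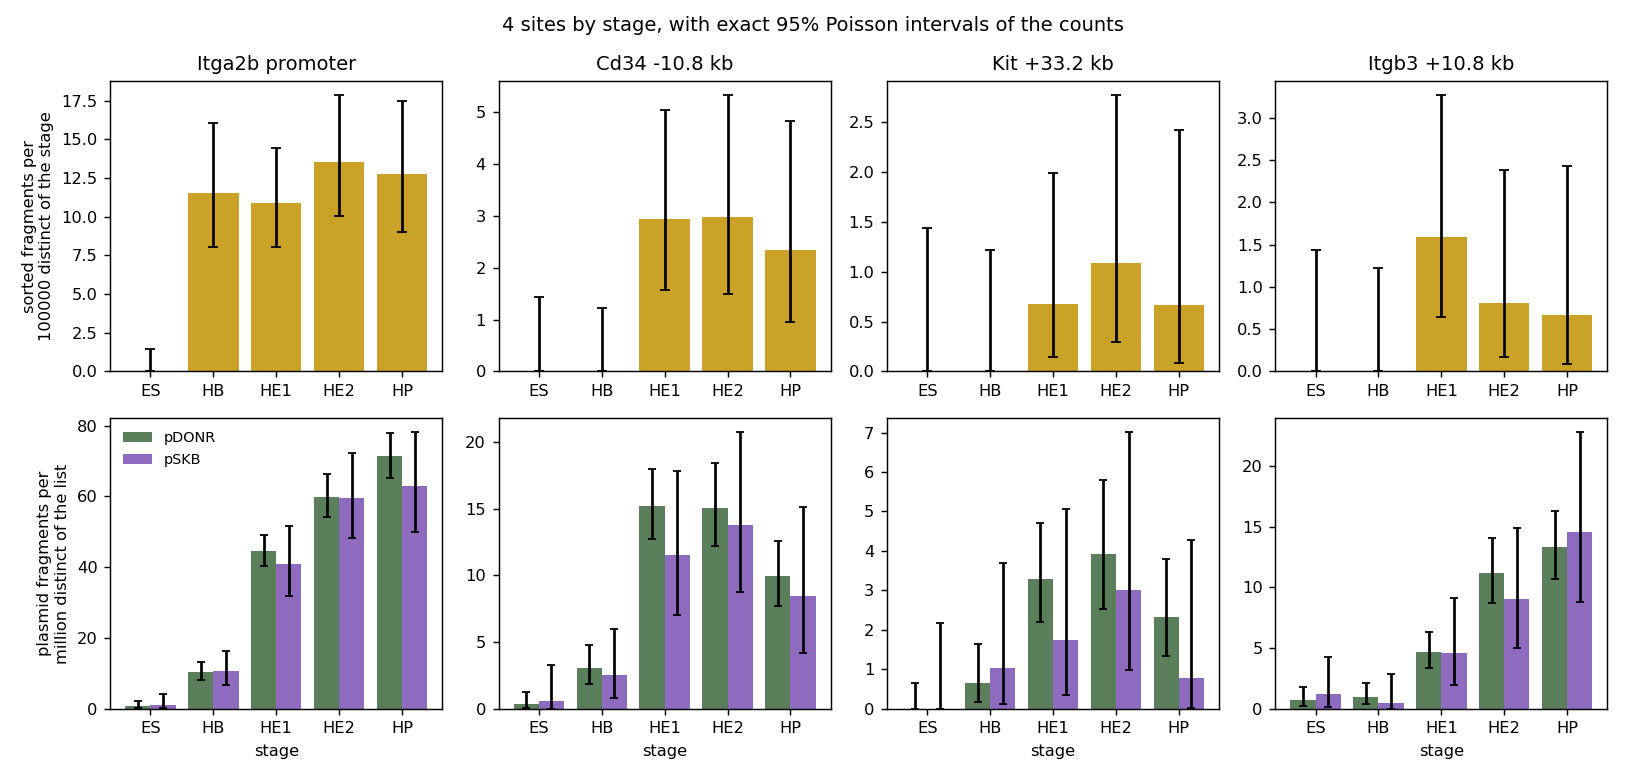
Sorted fragments per 100000 distinct fragments of the stage (upper row) and plasmid fragments per 1000000 distinct fragments of the list (lower row, pDONR and pSKB) by stage at the Itga2b promoter and the Cd34 -10.8 kb, Kit +33.2 kb and Itgb3 +10.8 kb sites. Bars are rates and lines exact 95% Poisson intervals. At ES the sorted bar is 0 at all 4 sites and the pDONR rate is below 1 per 1000000, whereas the Itga2b promoter reaches 71.4 per 1000000 at HP. The sorted 0 at ES allows more than the HE1 rate of the Kit +33.2 kb site.

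The 3 leading distal sites of Itga2b had ES shares of 17.3% to 19.8% of the summed pDONR rates. HB had their highest share, 30.2% at +14.0 kb, 24.9% at +32.2 kb and 23.5% at +2.9 kb, and HP had 24.4% at +32.2 kb. The Ptprc +136.3 kb site held 18, 12, 54, 36 and 26 pDONR fragments and 0, 2, 9, 6 and 6 pSKB fragments from ES to HP, and in sorted cells 0, 3, 5, 1 and 2 distinct fragments. Over all 63 distal sites of the loci with 20 or more pDONR fragments the median ES share was 15.6%, against 17.6% for 51726 such sites of the series. Of the 63, 18 (28.6%) were below the lower quartile of the series, 6.49%. They were 8 of 22 sites around Itgb3, 4 of 7 around Kit and 4 of 9 around Cd34. Itga2b had 1 of 10, Spn 1 of 11 and Ptprc 0 of 4. Another 13 (20.6%) were above the upper quartile, 29.7%. They were 6 of 11 sites around Spn, 4 of 22 around Itgb3, 2 of 10 around Itga2b and 1 of 9 around Cd34. Both totals were near the share that lies beyond a quartile by definition. Within the Itgb3 and Cd34 windows, sites of both kinds lay beside each other.

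Other genes of blood and endothelial surface proteins were tested in the same way. Of 30 blood surface genes, which included Itga4, Cd44, Procr and Csf1r, 27 to 30 had enough fragments at each comparison, and 0 were called in either direction. Of 10 endothelial genes, among them Kdr, Tek and Cdh5, 8 to 10 were tested and 0 were called. At HE2 the median positive to Negative difference on the log2 scale was 0.33 over the blood list and 0.22 over the endothelial list, beside 0.25 over all loci, and from ES to HP the medians were -0.09 and -0.19 beside -0.12.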

How the data were processed

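The authors trimmed reads with Trim Galore, aligned them to mm10 with Bowtie2, kept alignments of mapping quality 40 with SAMtools, converted pairs to fragments with bedtools and removed duplicates. Sorted fragments were then filtered against the HM-1 control lists, the union of plasmid fragments and ATAC-seq peaks. In the deposited lists 404 of the 2009 fragments of the loci had no identical plasmid fragment and 9 had an identical control fragment, so by identical coordinates the lists do not wholly meet that filter as stated. Whether peaks of the same stage or of all stages were used is not given in the sources used, so an absence at a stage cannot be told apart from that filter. The deposited sorted lists hold fragments without read counts; the deposited plasmid and control lists hold read counts per fragment, and only their distinct fragments were compared here. Reads were removed as duplicates, so intervals (exact Poisson, 95%) and the limit a count of 0 allows (3 counts) cover counting error only.

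The 6 genes, the lists of other surface genes and the tests were chosen with earlier results of these data known. Distinct fragments per 10000 listed in a set, plus 1, were log2 transformed and fitted with limma 3.58.1 (R 4.3.3, eBayes with trend, Benjamini-Hochberg over all features with a fragment in at least 4 sets). Sites were overlapping sorted fragments merged over all libraries, distal and promoter fragments apart. Tables were made with Python 3.11.15, pandas 2.3.3 and scipy 1.17.1. The fits were also run on simulated Poisson counts with known changes. Those counts lacked the replicate spread and shared fragments of the real sets, so they do not show what change could be called here. Named sites were promoter sites at a start of the member and the 3 distal sites of each locus found in most of the 25 positive sets; the Cd34 -10.8 kb and Itgb3 +10.8 kb sites were named after their values were seen. Alternatives changed the flank, the constant added, the low-value filter, the libraries, gates and replicates used, the fragments kept and the replicate block. The labels do not say what a shared replicate number marks. All 5 correlations of same-numbered deviations were above 0.1 in 2 of 15 comparisons (HB against ES in positive cells, 0.14 to 0.29, and the gates at ES, 0.14 to 0.33), and above 0 in 14 of 15, so whether the numbers pair the samples was not settled and both fits are given. Depth was 504 to 131091 fragments per sorted library, 5660096 to 8832923 per pDONR list and 1302941 to 1952358 per pSKB list.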

Additional observations from a re-analysis of the deposited data

Results flagged for a closer look

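In 10 of 60 groups of 5 replicate sets, 1 set stood apart from the other 4 by Dixon's criterion. In 8 of the 10 it belonged to the small replicates 3 to 5. The criterion's chance rate of about 1 in 20 holds for values of equal precision, which sets of such unlike depth do not give. A single fragment against 4 empty lists meets the criterion by construction, and the Ptprc groups at ES held no fragment. The number of groups is therefore not read against chance. At Kit, replicate 5 stood at 11.4 fragments per 10000 in ES Negative cells, from 1 fragment of 880, and at 4.59 in ES positive cells, from 1 of 2181. At Cd34, replicate 5 stood at 4.59 in ES positive cells, from 1 fragment, and at 6.68 in HP positive cells, from 3 of 4493. At Ptprc, the HB Negative list of replicate 1 held 0.213 per 10000 and the HE2 Negative list of replicate 2 held 0.270, each from 1 fragment where the other 4 lists held none, and the HP positive set of replicate 5 stood at 2.23 from 1 fragment. At Spn, replicate 4 was lowest at HB, with 0 in Negative cells and 1.70 in positive cells (1 of 5877), and replicate 3 was highest in HE1 positive cells at 15.5, from 6 of 3865. Neither Itga2b nor Spn moved in opposite directions at different stages in all replicates. The other members were not tested by this criterion, since a replicate with 0 in both positive and Negative cells has no direction. Kit and Ptprc had such a replicate at every stage, Cd34 at every stage but ES, and Itgb3 at every stage but HB.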

How the results depend on the processing

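No member was called under any of 19 other settings, where the lowest adjusted p was 0.739 in limma. Of 1115 alternative differences 996 kept their sign and 119 turned it. Counts of loci called over the genome, 0 in all 22 comparisons as reported, were 10 from ES to HB, 6 from HB to HE1, 3 from HE2 to HP and 9 from ES to HP with 50 kb flanks; 1 for positive against Negative cells and 1 for the gates at HE2 with 10 kb flanks; and 1 for positive against Negative cells at HE2 and 1 for the gates at HB and HE2 with libraries of at least 1000 fragments. Sites called at HE1 were 2 when a fragment in 2 sets sufficed. Leaving out 1 replicate gave 0 to 28 loci from ES to HB (28 without replicate 5), 0 to 7 from HB to HE1 (without replicate 5), 0 to 9 from HE2 to HP (without replicate 4), 0 to 7 from ES to HP (without replicate 5), and 0 to 1 for positive against Negative cells at ES and HB (without replicate 4), HE2 (without replicate 3) and HP (without replicates 1, 2 or 5) and for the gates at HB and HE1 (without replicate 5). Uncalled differences that turned were Spn at HE1, -0.10 with 10 kb and -0.053 with 50 kb flanks, and from ES to HP Kit, 0.35 with High gates only, Cd34, 0.12 with High gates and 0.29 with distal fragments only, Itga2b, -0.054 with libraries of at least 1000 fragments and -0.039 to 0.23 when each replicate was left out in turn (-0.039 without replicate 5 and -0.0078 without replicate 2), Itgb3, -1.15 with distal fragments only and -0.30 to 0.95 when each was left out (-0.30 without replicate 4), and Spn, 0.033 with 50 kb flanks. The cause was not tested. With the replicate block, 0 loci were called in any comparison and the lowest adjusted p of a member was 0.761. Few fragments per set limit all these tests.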
